A study of Mus musculus with 75 samples.

Results

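The comparison described here is that of obstructed kidneys from *Pdgfb* knockout mice (PbKO) with obstructed kidneys from their wild-type controls (PbWT). It rests on the 8 libraries of 75 in the series whose labels name unilateral ureteral obstruction (UUO) and one of these 2 genotypes, 4 libraries of PbKO and 4 of PbWT, each made from the whole kidney 3 days after 1 ureter was tied. The PbKO mice carried floxed *Pdgfb* alleles and a tamoxifen-inducible Cre under the *Actb*-CreERT2 (CAG-cre/Esr1) transgene, which acts in the whole body, and tamoxifen was given by gavage a week before the experiments. The PbWT mice were Cre-negative littermates with 1 or both *Pdgfb* alleles floxed, and no source used here says whether they also received tamoxifen. All mice were adult, of both sexes, on a mixed background, and received carprofen around surgery. For the *Pdgfb* mice the paper lists more females than males among the controls and more males than females among the knockouts. Sex was thus not balanced between the genotypes, and the labels give no sex for a library. Libraries labelled as contralateral (CL) kidneys of the same genotypes, 4 each, entered the same fit and are given beside the UUO values. In the PbWT CL group 2 of the 4 libraries are not contralateral kidneys but come from sham-operated mice, used in place of lost samples, and the labels do not mark which. Other groups of the series served for a list of genes that respond to obstruction and for a fit over all 12 groups. They were mice given ABTAA, an antibody that activates TIE2, or human IgG Fc, and *Veptp* mice. Both treated groups were C57BL6/J or WT mice. The *Veptp* knockout was endothelial, by *Cdh5*-CreERT2 and tamoxifen. Its controls (*Veptp* WT) were noninduced mice with *Cdh5*-CreERT2 and 1 floxed allele. As the RNA came from whole kidneys, fewer cells of a type and less RNA per cell cannot be told apart.

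PDGF-B is a secreted growth factor that binds the receptor PDGFRB on pericytes, fibroblasts, and vascular smooth muscle cells, and it drives their recruitment and growth. In the obstructed kidney these perivascular cells turn into matrix-producing myofibroblasts, while the tubular epithelium, which carries most of the organ's mitochondria and transporters, loses much of its differentiated expression program and macrophages enter the interstitium. The comparison asks how these responses differ when *Pdgfb* has been deleted.

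Libraries held 888357 to 2049326 counts in PbWT UUO and 337545 to 1249343 in PbKO UUO, with F10 as the shallowest. Levels are given as CPM, counts scaled to the size of the library and its TMM factor, and libraries are named by their titles. In all 4 PbKO UUO libraries both *Xist*, which is transcribed in female cells, and the sum of 4 Y-linked genes (*Ddx3y*, *Eif2s3y*, *Kdm5d*, and *Uty*) reached 10 counts. *Xist* was at 234 CPM in F10, 162 in E11, 215 in A12, and 45.3 in F12, and the Y-linked genes summed to 103, 111, 87.1, and 96.1 CPM. *Xist* and that sum also both reached 10 counts in 2 of 4 PbWT UUO libraries, B11 and D11, in 2 of 4 PbWT CL libraries, and in 0 of 4 PbKO CL libraries, whereas C12 and D12 held 1 Y-linked count each. A library with both kinds of transcript does not match 1 mouse of 1 sex, and all 4 PbKO UUO libraries were of this kind, so no fit without them could be made. What part this had in the results was not tested, and counts without B11 and D11, or without C12 and D12, are given below. Where nothing says how tissue was divided, the p-values measure the spread between these libraries.

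*Pdgfb*, on chromosome 15 (79995874 to 80014977, GRCm38), was lower in PbKO UUO without passing the test. Its level was 56.5 CPM in B11, 54.2 in D11, 43.2 in C12, and 57.8 in D12 of PbWT, against 33.4 in F10, 35.9 in E11, 38.4 in A12, and 40.6 in F12 of PbKO. Each PbKO library was below each PbWT library, and all 8 lay above every CL library. The log2 fold change was -0.47 (SE 0.21) with an adjusted p of 0.124 by edgeR's quasi-likelihood test, and the value passed in a fit of the UUO libraries alone (adjusted p = 0.0472) and in edgeR's exact test (adjusted p = 0.0396). In CL kidneys the difference went against the label, with 19.0 ± 3.98 CPM in PbKO and 10.4 ± 6.71 in PbWT (SD, n = 4 each), which is 0.78 on the log2 scale (SE 0.33; edgeR, unadjusted p = 0.0259, adjusted p = 1). The genotype effect in UUO minus that in CL was -1.26 (SE 0.39, adjusted p = 0.0459 by edgeR). No source used here names the exons lost on recombination, and counts over the whole gene therefore do not check the deletion. The paper itself reports lower *Pdgfb* expression in the knockout, for obstructed as well as contralateral kidneys. The CL libraries here differ from that report in direction.

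Of the other PDGF ligands and receptors, *Pdgfrb* and *Pdgfa* fell. *Pdgfrb*, the receptor for PDGF-B, was at 54.6, 56.6, 55.9, and 67.6 CPM in B11, D11, C12, and D12 and at 30.0, 21.3, 21.4, and 44.5 in F10, E11, A12, and F12. The groups did not overlap, with F12 nearest to PbWT, and the log2 fold change was -0.97 (SE 0.22, adjusted p = 0.00239 by edgeR). *Pdgfa*, a ligand of PDGFRA, ranged from 42.1 to 64.9 CPM in PbWT and from 25.0 to 35.0 in PbKO, with a log2 fold change of -0.69 (adjusted p = 0.023 by edgeR) that no longer passed without D11 or without F12. *Pdgfra*, the receptor of fibroblasts, had a log2 fold change of -0.63 (adjusted p = 0.0727), and the ligands *Pdgfc* and *Pdgfd* had 0.11 and 0.17, values that turn negative without TMM factors.

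Across the genome 2035 of 10923 genes tested (18.6%) passed an adjusted p of 0.05, 1314 (12.0%) higher and 721 (6.60%) lower in PbKO UUO. The median log2 fold change of all genes tested was -0.02, and the groups did not overlap for 2428 genes (22.2%). Without TMM factors that median was -0.28 and the split was 667 higher and 2383 lower, so directions are given relative to the bulk of genes. In a fit over all 12 groups of the series 260 genes were higher and 61 lower, and with every library thinned to 337545 counts 455 and 196. Leaving out B11 and D11 gave 820 higher and 357 lower, and leaving out C12 and D12 gave 960 and 354. The number lower also dropped to 453 without D12, 440 without E11, and 444 without A12. The gene lists below are described by counts and medians beside 12.0% called higher and 6.60% called lower over all genes. No set test was run, list members share the same libraries and are not independent, and differences between lists were not tested.

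**Figure D1:**
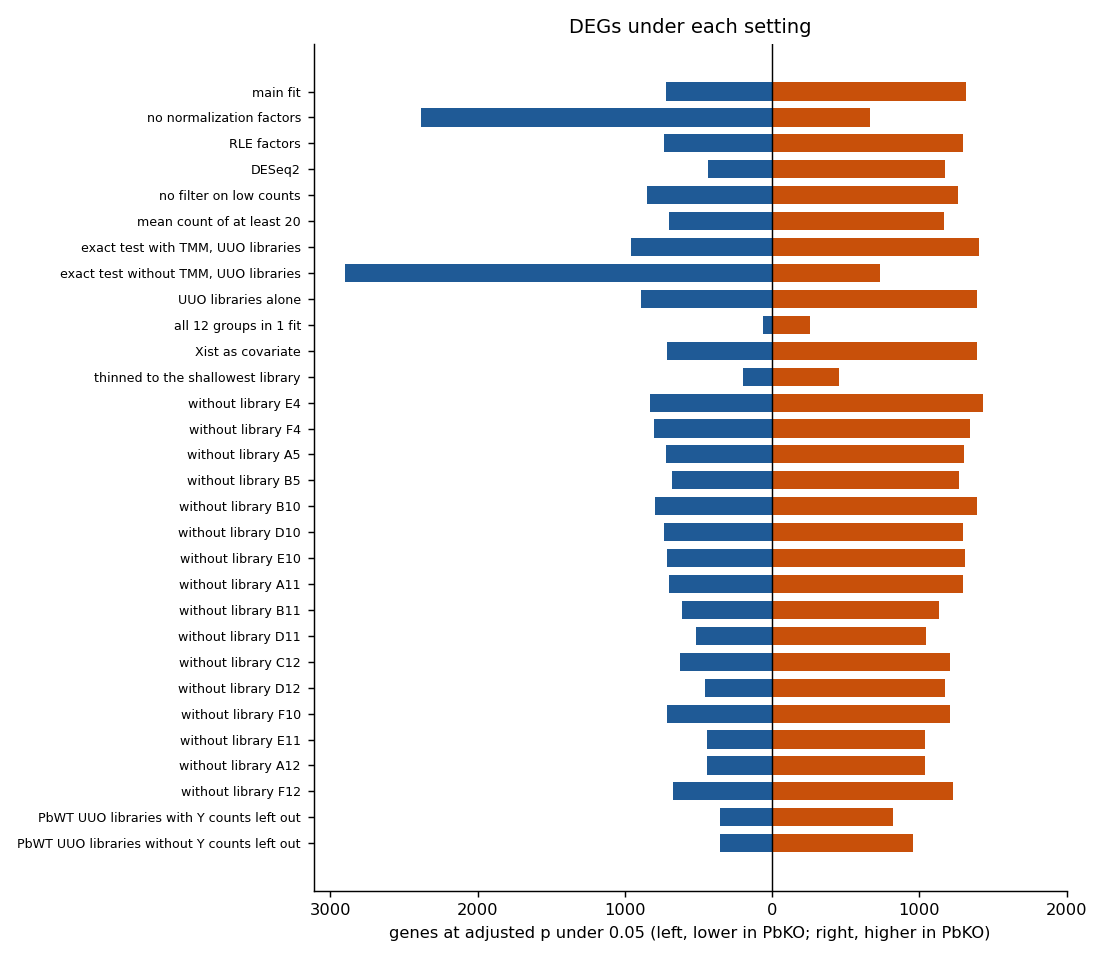
Number of genes at an adjusted p under 0.05 in the main fit and under each of the other settings, with genes lower in PbKO UUO to the left and genes higher to the right. Genes higher in PbKO outnumber those lower under all settings shown except the 2 without TMM factors, and the fit over all 12 groups has the fewest of both.

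The largest rises included genes of the distal nephron. Of the 8 genes with the largest fold changes among those with a mean of at least 10 CPM over the 8 UUO libraries whose groups did not overlap, 5 are distal nephron genes or overlap one. *Pvalb*, the calcium-binding protein parvalbumin of the early distal convoluted tubule, was at 1.26 CPM in B11, 0.60 in D11, 0.40 in C12, and 2.94 in D12, against 20.0 in F10, 17.9 in E11, 29.9 in A12, and 91.4 in F12. Every PbKO library was far above every PbWT library, and F12 lay above all CL libraries, which ranged from 32.1 to 70.3. The log2 fold change was 5.25 (SE 0.55, adjusted p = 3.36e-07 by edgeR), but the PbWT values rest on very few counts.

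*Calb1*, the intracellular calcium carrier calbindin-D28k, was at 33.9, 31.0, 68.2, and 43.1 CPM in PbWT (B11, D11, C12, D12) and at 354, 306, 378, and 546 in PbKO (F10, E11, A12, F12). *Egf*, the growth factor precursor made in the thick ascending limb and distal tubule, was at 40.2, 65.5, 146, and 104 CPM in PbWT and at 781, 658, 888, and 561 in PbKO. For both genes the groups were several-fold apart, with PbKO still below the CL range of 588 to 871 CPM for *Calb1* and 1139 to 1609 for *Egf*. The log2 fold changes were 3.15 (SE 0.21) and 3.01 (SE 0.26), with adjusted p-values of 3.93e-10 and 1.77e-08 by edgeR. *S100g*, which encodes calbindin-D9k, rose by 2.97 on the log2 scale, from 134 to 217 CPM in PbWT to 1084 to 1898 in PbKO. *6330410L21Rik* (chromosome 3, 129753758 to 129763884) is annotated as antisense and overlaps the start of *Egf* on the other strand (129677565 to 129755316), and as strand use in counting is not given, its rise of 2.94 cannot be told apart from reads of *Egf*.

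The remaining 3 of these 8 were *Inmt*, an N-methyltransferase, *Ttr*, the thyroid hormone carrier transthyretin, and *Ces1d*, a carboxylesterase, with log2 fold changes of 3.49, 3.25, and 2.85. *Inmt* was at 29.5, 53.6, 26.2, and 7.84 CPM in PbWT and at 754, 272, 273, and 143 in PbKO, and *Ttr* ranged from 15.7 to 29.2 and from 122 to 397 CPM. F10 was the highest library for both, above the mean of either CL group. *Ces1d* was at 317, 298, 308, and 200 CPM in PbKO, with F12 standing apart below the other 3, and at 24.5 to 52.8 in PbWT.

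Of 12 genes of the thick ascending limb and distal convoluted tubule 10 were higher and 0 lower, with a median log2 fold change of 1.13. *Slc12a3*, the thiazide-sensitive sodium-chloride cotransporter, was at 184, 186, 179, and 158 CPM in PbWT and at 514, 388, 491, and 303 in PbKO, and *Slc12a1*, the loop-diuretic-sensitive cotransporter, ranged from 163 to 340 and from 478 to 731. Neither gene's groups overlapped (log2 fold changes 1.25 and 1.27, adjusted p = 1.51e-05 and 3.63e-05 by edgeR). *Umod*, which encodes uromodulin, the most abundant protein of normal urine, rose by less, 0.61 (adjusted p = 0.0422). The magnesium channel *Trpm6* had a log2 fold change of 0.00 and *Cldn16*, a paracellular magnesium pore, 0.25, and neither passed. Summed over the list, PbWT UUO libraries held 2591 to 3053 CPM, PbKO UUO libraries 5074 to 6832, and CL libraries 6807 to 10900, and with all 12 groups in 1 fit 4 of the 12 passed.

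In the proximal tubule, the segment that reclaims most of the filtered phosphate, glucose, and amino acids, 28 of 37 genes were higher and 0 lower, with a median of 0.92. The list summed to 8526 to 10710 CPM in PbWT UUO, 15070 to 26630 in PbKO UUO, and 27320 to 34270 in CL libraries, F12 being the lowest of PbKO. *Slc34a1*, the sodium-phosphate cotransporter, was at 391, 409, 492, and 416 CPM in PbWT and at 1948, 1459, 1608, and 749 in PbKO, or 1.75 on the log2 scale (SE 0.19, adjusted p = 1.02e-06 by edgeR). F10 was inside the CL range of 1741 to 2182 CPM, and F12 was the lowest of PbKO but above every PbWT library. *Miox*, which starts the breakdown of inositol in the kidney, was at 224, 307, 292, and 253 CPM in PbWT and at 1004, 982, 1132, and 838 in PbKO, and *Ass1*, the urea cycle enzyme that serves arginine synthesis in this segment, ranged from 217 to 259 and from 577 to 1071 CPM. Among drug and anion carriers *Slc22a8* rose by 2.21 and *Slc22a6* by 1.52. The transcription factor *Hnf4a*, which maintains proximal tubule identity, rose by 0.59 (adjusted p = 0.00673). Of the genes that did not pass, *Slc5a1*, *Mme*, and *Slc7a7* had the smallest values, 0.15, 0.18, and 0.21.

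Of 15 collecting duct genes 4 were higher and 0 lower, with a median of 0.35 that was 0.08 without TMM factors. The 4 were *Slc4a1*, the bicarbonate exchanger of acid-secreting cells, *Aqp3*, a basolateral water channel, *Slc26a4*, the pendrin exchanger of base-secreting cells, and *Atp6v1g3*, a proton pump subunit, with log2 fold changes of 1.59, 1.16, 1.16, and 0.97. The vasopressin-regulated water channel *Aqp2* had 0.41 (adjusted p = 0.346), and the sodium channel subunit *Scnn1g* -0.01. In podocytes, the filter cells of the glomerulus, 0 of 10 genes passed by edgeR (2 at an unadjusted p under 0.05, 0 by DESeq2), with a median of -0.21, although 3 were lower without TMM factors.

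**Figure D2:**
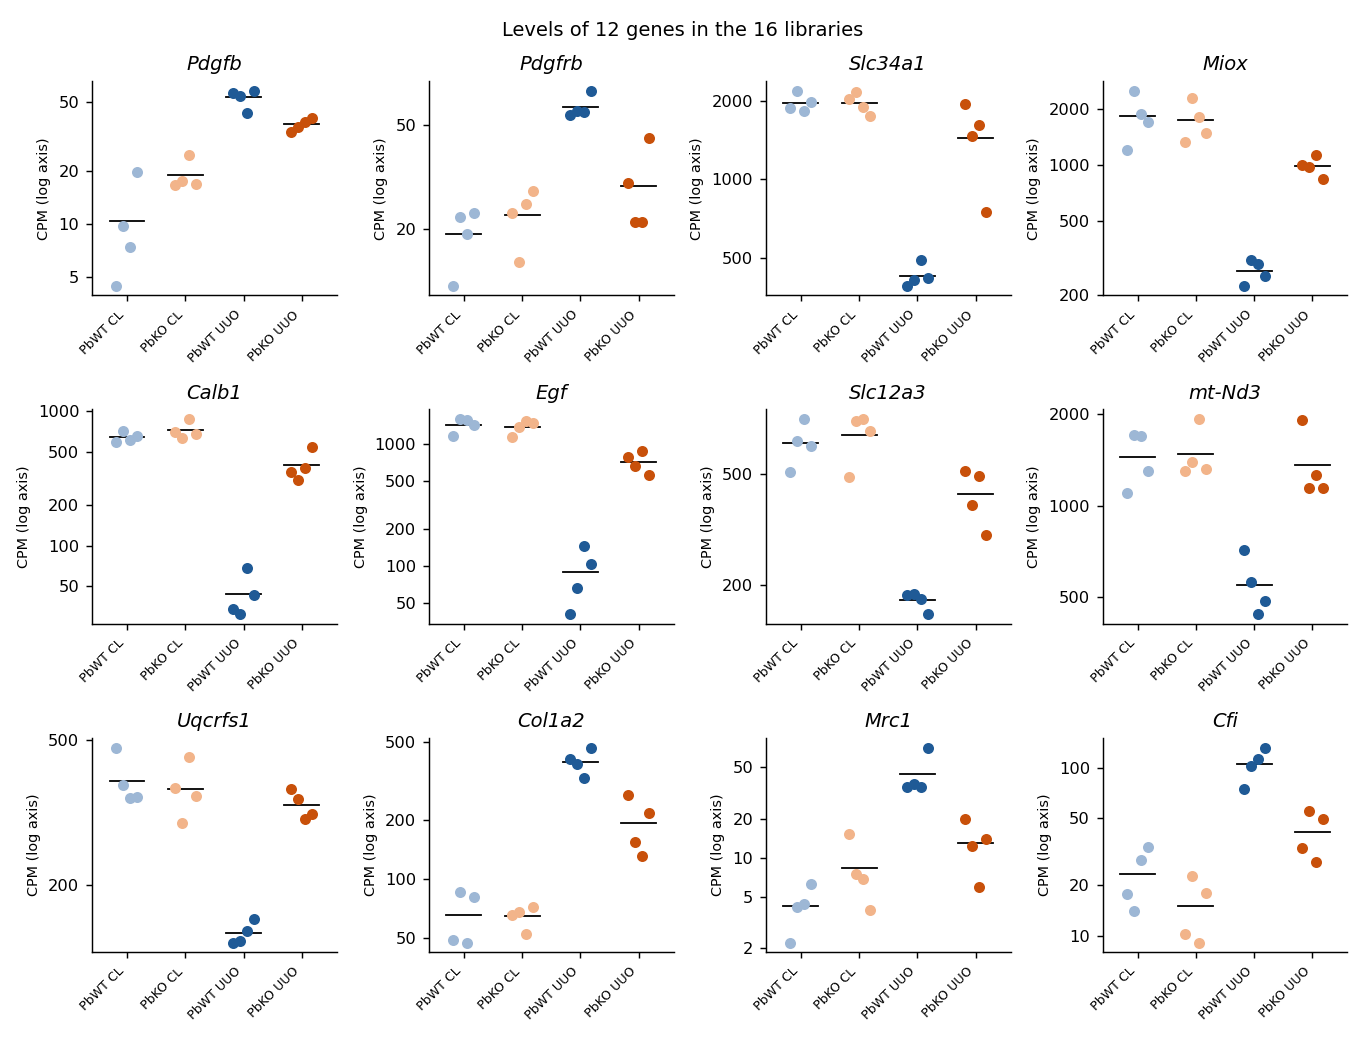
CPM of 12 genes on log axes in the 16 libraries of PbWT and PbKO, CL and UUO, where points are libraries and bars are group means. In PbKO UUO the tubular and mitochondrial genes lie above PbWT UUO and the PDGF, collagen, macrophage, and complement genes below it, with most PbKO UUO values between PbWT UUO and CL.

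Mitochondrial genes rose as a block. All 36 nuclear genes of respiratory complex I and all 38 of complexes II to V were higher, with medians of 0.81 and 0.91 and ranges of 0.60 to 1.02 and 0.44 to 1.33. *Uqcrfs1*, the Rieske iron-sulfur protein of complex III, was at 139, 141, 150, and 162 CPM in PbWT (B11, D11, C12, D12) and at 367, 345, 303, and 313 in PbKO (F10, E11, A12, F12). The PbKO libraries lay within the CL range of 295 to 476 CPM, all above PbWT, and the log2 fold change was 1.16 (SE 0.14, adjusted p = 2.40e-06 by edgeR). Sums over complex I were tight within a group, 7073 to 7846 CPM in PbWT and 13110 to 13850 in PbKO. F12, which was well below the other PbKO libraries for the proximal tubule, was close to them here.

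The 13 protein-coding genes of mitochondrial DNA were also all higher, with a median of 1.09. *mt-Nd3*, a complex I subunit, was at 713, 560, 440, and 486 CPM in PbWT and at 1908, 1139, 1261, and 1141 in PbKO (log2 fold change 1.30, SE 0.19, adjusted p = 3.17e-05 by edgeR). F10 stood highest. Transcripts of mitochondrial DNA took 1.23% to 1.80% of counts in PbWT UUO, 1.94% to 3.61% in PbKO UUO, and 2.83% to 4.11% in CL libraries. With all 12 groups in 1 fit the 3 lists had 4, 3, and 4 genes past the threshold, with medians of 0.80, 0.91, and 1.08.

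All 20 genes of the tricarboxylic acid cycle were higher (median 0.73), and their sum was 4634 to 5498 CPM in PbWT and 8027 to 10010 in PbKO. Of 26 genes of fatty acid oxidation 18 were higher and 0 lower (median 0.59). *Ehhadh*, a peroxisomal enzyme, rose by 1.31 and *Acadm*, the medium-chain acyl-CoA dehydrogenase, by 1.20, whereas *Ppara* and *Ppargc1a*, which regulate the pathway, had 0.49 and 0.27 and did not pass, and *Pdk4*, which restrains pyruvate use, had -0.49 and did not pass. Glycolysis had 6 of 15 higher and 0 lower with a median of 0.38, among them *Pgk1* (0.67) and *Tpi1* (0.70), while *Hk2*, *Pfkp*, and *Slc2a1* had negative values that did not pass. Of 18 antioxidant and metal-binding genes 11 were higher, led by catalase (*Cat*, 1.18) and the mitochondrial superoxide dismutase (*Sod2*, 1.05). Cytosolic ribosomal proteins gave 0 of 78 past the threshold by edgeR (8 at an unadjusted p under 0.05, 2 higher by DESeq2, and 2 higher without E4, 2 without F4, and 1 without D12), and their median of 0.14 turned to -0.13 without TMM factors.

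Promoters of the respiratory chain are shown because its genes rose together. The 250 bases before the start site, from RefSeq promoter sequences on GRCm38.p6 with the first listed start of each gene, were searched on both strands for GCGCA, any base, and GCGC in a row, the motif of NRF1, a regulator of nuclear genes for mitochondria. It was found in 12 of 61 of these genes with a promoter sequence (19.7%), against 8.68% of 8536 genes tested, 3.86% of all 27018 promoters, and 9.20% of all genes higher in PbKO UUO with one. The 3 with the lowest adjusted p among the 12 are *Cox6a1* (chr5:115348959-115349208, minus strand), *Ndufs6* (chr13:73328483-73328732, minus strand), and *Ndufa8* (chr2:36049339-36049588, minus strand), printed 5′ to 3′ with each match in capitals.
Cox6a1: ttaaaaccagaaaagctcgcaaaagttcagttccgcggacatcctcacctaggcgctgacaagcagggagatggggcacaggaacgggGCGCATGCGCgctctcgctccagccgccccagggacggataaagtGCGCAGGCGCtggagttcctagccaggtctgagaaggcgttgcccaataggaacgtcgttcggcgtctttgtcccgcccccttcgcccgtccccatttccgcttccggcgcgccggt
Ndufs6: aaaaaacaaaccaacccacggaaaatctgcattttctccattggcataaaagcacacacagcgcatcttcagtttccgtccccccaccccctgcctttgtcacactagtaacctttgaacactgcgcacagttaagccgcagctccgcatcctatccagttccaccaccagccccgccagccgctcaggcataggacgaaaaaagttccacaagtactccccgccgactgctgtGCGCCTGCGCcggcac
Ndufa8: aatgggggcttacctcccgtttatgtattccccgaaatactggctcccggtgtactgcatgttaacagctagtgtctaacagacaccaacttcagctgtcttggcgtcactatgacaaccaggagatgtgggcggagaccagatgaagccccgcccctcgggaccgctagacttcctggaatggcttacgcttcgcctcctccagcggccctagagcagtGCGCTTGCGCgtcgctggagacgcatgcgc
*Cox6a1* holds 2 matches, 162 and 117 bases before its start, and the others 1 each. *Cox6a1*, a subunit of cytochrome c oxidase, was at 140 to 152 CPM in PbWT UUO and 237 to 337 in PbKO UUO. A match describes letters in the window and no bound site, and base composition was not matched between the groups. No printed match overlapped one to the CArG box, a motif of contractile genes, which was found in 0 of 9 contractile genes that were lower and 1.12% of genes tested (1.4% of all promoters).

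The matrix genes moved the other way. All 12 interstitial collagen genes tested were lower, with a median of -1.07 and a range of -1.56 to -0.66. *Col1a2*, a chain of type I collagen, was at 408, 383, 327, and 465 CPM in PbWT and at 267, 155, 131, and 217 in PbKO (log2 fold change -1.08, SE 0.19, adjusted p = 0.000218 by edgeR). No PbKO library reached a PbWT library, F10 being the highest of PbKO, and all stayed above the CL range of 47.2 to 85.1 CPM. *Col12a1* and *Col8a1* fell (-1.13 and -1.10), and their groups did not overlap, while for *Col5a1*, which had the largest negative value of the list, F10 (30.0 CPM) lay within the PbWT range of 17.5 to 34.3. The collagen list had 6 genes lower without A12, 1 with all 12 groups in 1 fit, and 8 without B11 and D11 or without C12 and D12. The study's own panel of 14 matrix genes, of which 13 were lower, had 7 lower without E11, 6 without A12, and 3 with all 12 groups in 1 fit. That panel was chosen by the study and is not independent evidence of its direction.

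Among glycoproteins and proteoglycans 13 of 19 were lower and 0 higher (median -0.80), and 7 were lower without E11 and 6 without A12. *Fbn1*, the microfibril protein fibrillin-1, was at 80.9, 57.2, 67.8, and 111 CPM in PbWT and at 23.4, 32.5, 29.0, and 43.0 in PbKO, and *Tgfbi* fell by 1.08. In the basement membrane 10 of 20 were lower (median -0.56), and 5 without D12. The 10 included *Col4a1* and *Col4a2* (-0.81 and -0.84) and the laminin chain *Lama5* (-0.98). *Col4a3* and *Col4a4*, the chains of the glomerular and distal tubular membrane, had 0.51 and 0.27 and did not pass. Of 20 genes for matrix crosslinking and turnover 11 were lower, a count of 6 or 7 without B11, D11, D12, E11, or A12. *Timp1*, an inhibitor of metalloproteinases, was at 55.8 to 70.9 CPM in PbWT and 17.1 to 36.7 in PbKO. *Timp3*, another inhibitor of the family, was the 1 gene higher (0.51, adjusted p = 0.0202 by edgeR). Its call was lost without D11, C12, or F10, under no TMM factors, with all 12 groups in 1 fit, and in both splits of PbWT.

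Contractile genes, a mark of myofibroblasts, had 10 of 15 lower and 0 higher (median -0.73), against 5 lower without A12, with filamin A (*Flna*), caldesmon (*Cald1*), and alpha-actinin-1 (*Actn1*) at -0.76, -0.75, and -1.03. *Actn1* was at 47.6 to 53.2 CPM in PbWT and at 15.4 to 31.3 in PbKO. *Acta2*, which encodes alpha-smooth muscle actin, was also lower (-0.94), but F12 (104 CPM) exceeded D11 (95.3 CPM). Its call was lost without D12, E11, or A12, without C12 and D12 together, and with all 12 groups in 1 fit. *Tagln* (-0.76) had no overlap, and its call was lost without E11 or A12, without C12 and D12 together, and with all 12 groups. Smooth muscle myosin *Myh11* had -0.30 and did not pass (adjusted p = 0.553). Pericyte and smooth muscle markers as a group gave 1 lower and 1 higher of 8 tested. *Des*, the intermediate filament desmin, had -1.36, a call lost without A12 or F12, and F10 (16.7 CPM) lay above the lowest PbWT library (13.2 CPM). *Ren1*, the renin gene of juxtaglomerular cells, was at 50.8, 33.4, 77.0, and 87.2 CPM in PbWT and at 103, 102, 127, and 81.3 in PbKO (0.75, adjusted p = 0.035 by edgeR). The groups overlap for *Ren1*, and its call was lost without B11, D11, F10, E11, or A12 and under no TMM factors. *Rgs5*, *Abcc9*, and *Cspg4* had -0.09, -0.26, and -0.41 and did not pass, and the summed list was at 253 to 356 CPM in PbWT and 247 to 314 in PbKO. Fibroblast markers gave 4 of 6 lower, *Dcn*, *Col14a1*, *Fbln1*, and *Dpt*, and all 4 calls were lost without A12, while 1 gene was lower without D12 and 1 without E11. The list summed to 261 to 364 CPM in PbWT and 114 to 234 in PbKO.

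Macrophage markers were lower in 12 of 17 genes and higher in 0, with a median of -0.96. *Mrc1*, the mannose receptor, was at 35.1, 36.9, 34.9, and 70.5 CPM in PbWT and at 20.0, 12.3, 5.98, and 14.1 in PbKO, or -1.87 on the log2 scale (SE 0.32, adjusted p = 0.00016 by edgeR). D12 stood above the other 3 PbWT libraries, which were close to each other. The lysosomal protease *Ctss* fell by 1.08, the chemokine receptor *Ccr2* by 1.07, and the lipopolysaccharide co-receptor *Cd14* by 1.48, each with groups that did not overlap. *Cd68*, *Lyz2*, *C1qa*, and *C1qc* had -0.35, -0.46, -0.50, and -0.50 and did not pass. The list summed to 938 to 1516 CPM in PbWT UUO, 578 to 721 in PbKO UUO, and 173 to 346 in CL libraries, and 7 of the 17 were lower without B11 and D11 as well as without C12 and D12. None of the neutrophil, lymphocyte, and urothelium markers had enough counts to be tested, and their sums stayed at or below 29.8 CPM in each UUO library. Lymphocyte sums were 19.1 to 25.7 CPM in PbWT UUO and 7.69 to 16.7 in PbKO UUO. Mean sums were 16.1 and 7.23 CPM for neutrophil and 16.35 and 6.61 for urothelium markers, with groups that overlap.

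Complement genes, which tubular and interstitial cells express in injury, were lower in 7 of 10 (median -0.79). *C3*, the central component, was at 1153, 1358, 1229, and 1690 CPM in PbWT and at 584, 566, 611, and 755 in PbKO (log2 fold change -1.10, SE 0.24, adjusted p = 0.00166 by edgeR), against 29.9 to 145 in CL libraries. The regulator *Cfi* fell by 1.31, and *C1ra* was also lower (-1.10). *C4b* and *Cfb* had 0.01 and 0.03, and the largest value of the list was 0.68, which did not pass. Of 16 chemokine and NF-kB genes 6 were lower, among them *Cxcl1*, a chemokine that draws neutrophils, at 59.6 to 93.5 CPM in PbWT and 39.2 to 46.1 in PbKO apart from F10 at 3.34, a single count, and *Nfkb1* (-0.92). *Ccl2*, which draws monocytes, had 0.00, and *Cxcl12* was higher (0.76, adjusted p = 0.0148), a call lost without D11, without A12, and under no TMM factors.

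Of 14 immediate-early genes 6 were lower and 0 higher (median -0.60). *Egr1* was at 67.8, 116, 59.1, and 78.4 CPM in PbWT and at 26.7, 37.0, 19.7, and 34.4 in PbKO, and the log2 fold changes were -1.43 for *Egr1*, -1.88 for *Egr2*, and -1.31 for *Fosl2*, with no overlap between groups. *Atf3*, a stress-response factor, had -0.21 and did not pass. In the cell cycle list 4 of 23 were lower, *Mki67*, *Top2a*, *Cenpf*, and *Mcm3*, with a median of -0.28, and all 4 calls were lost without A12 as well as without B11 and D11 together. Leaving out B11 gave 1 lower and leaving out D11, D12, or E11 gave 2, while *Pcna* had -0.13 and did not pass in the main fit. TGF-beta signalling had 6 of 12 lower and 0 higher (median -0.52), but 2 or 3 without C12, D12, E11, A12, or F12, with the receptor *Tgfbr2* at 107 to 121 CPM in PbWT and 65.0 to 83.4 in PbKO.

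In the endothelium 3 of 10 genes of the study's panel were lower, *Flt1*, *Cdh5*, and *Pecam1*, with a median of -0.59. *Flt1*, a VEGF receptor, was at 39.5, 49.4, 55.5, and 57.8 CPM in PbWT and at 33.4, 25.8, 37.6, and 32.0 in PbKO, where CL libraries ranged from 41.8 to 65.8, so PbKO UUO lay below both. *Cdh5*, the endothelial cadherin, was at 29.8 to 33.3 CPM in PbWT and 12.8 to 24.2 in PbKO. *Tek*, *Kdr*, and *Emcn* had -0.70, -0.29, and -0.28 and did not pass. The call of *Flt1* was lost without E11 and those of *Cdh5* and *Pecam1* without A12, and all 3 were lost without C12 and D12 and with all 12 groups in 1 fit. The activation genes *Icam1*, *Vcam1*, and *Klf4* were all lower (-0.80, -0.87, and -0.79). The calls of *Vcam1* and *Klf4* were lost without D12, without E11, and by DESeq2, and that of *Klf4* also without A12, and the groups overlap for *Vcam1* because A12 (331 CPM) and F12 (355 CPM) exceeded C12 (316 CPM).

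Of the study's panel of 8 tubular injury genes, in which all values were negative, *Piezo1* (-0.95) and *Rela* (-0.55) passed, and this count ranged from 1 to 8 over the other settings. The call of *Rela* was lost without B11, D11, D12, E11, or F12, by DESeq2, after thinning, with all 12 groups, and in both splits of PbWT, while that of *Piezo1* was kept in each setting run. *Havcr1*, which encodes KIM-1, was at 1129, 926, 614, and 825 CPM in PbWT and at 364, 551, 481, and 709 in PbKO, so that the groups overlap, and *Lcn2* was at 202 to 254 and 110 to 148 with no overlap (-0.87, adjusted p = 0.062 by edgeR). Of 15 further injury genes *Dcdc2a*, *Sox4*, and *Krt20* were lower, with -1.08, -0.94, and -1.08, and 5 were lower without E4 or without E11. *Dcdc2a* was at 156 to 163 CPM in PbWT and 65.0 to 90.1 in PbKO. *Krt7*, *Spp1*, and *Cryab* had 0.02, -0.49, and 0.13 and did not pass. *Cdkn1a*, an arrest gene downstream of p53, fell by 0.73, the 1 of 11 p53 targets that passed.

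**Figure D3:**
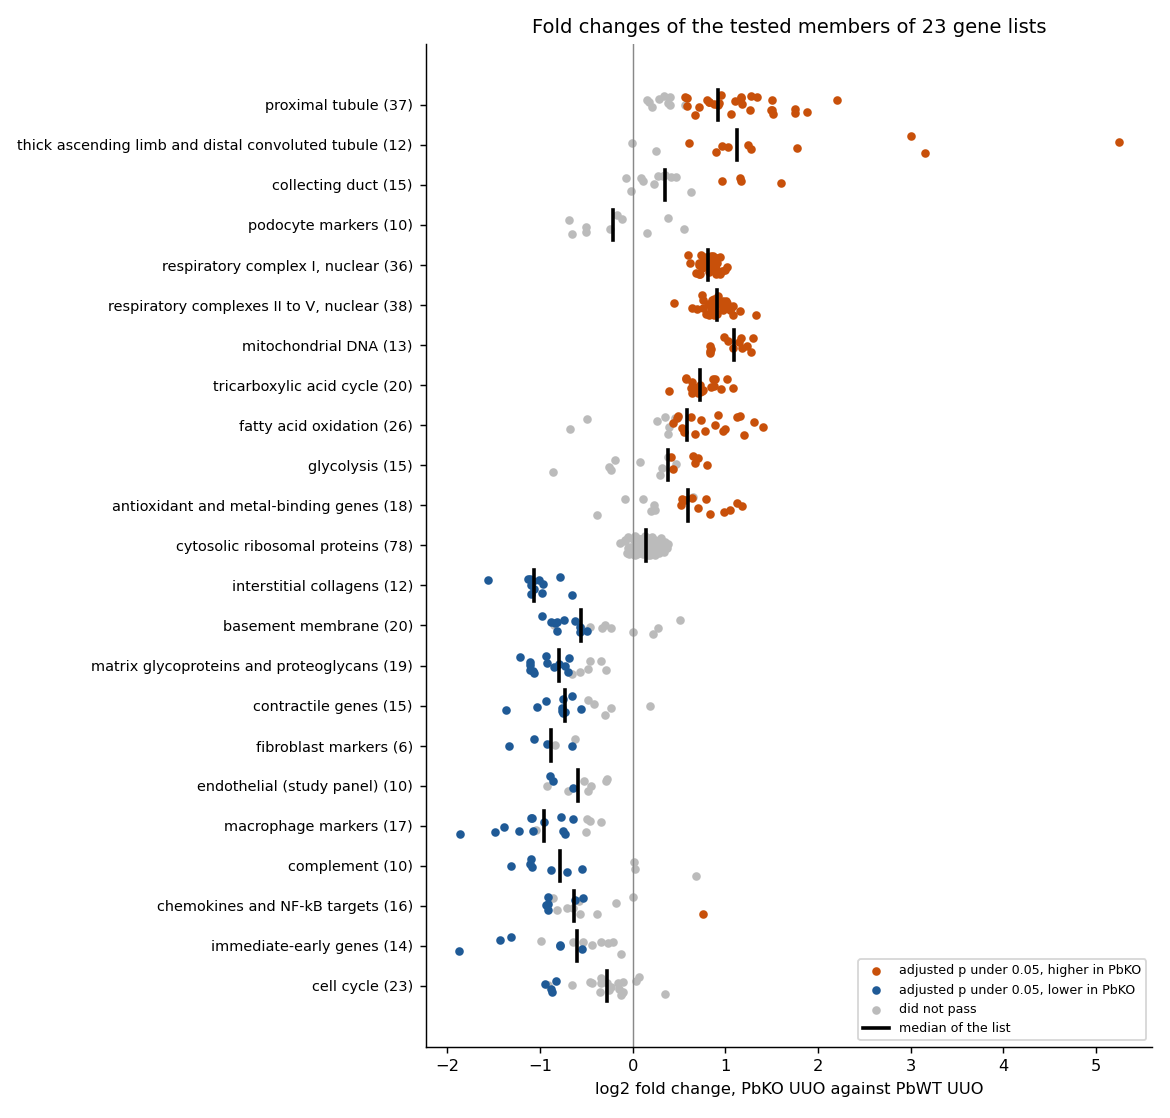
Log2 fold changes of PbKO UUO against PbWT UUO for the tested members of 23 gene lists, with the number of members in brackets, medians as black bars, and genes past an adjusted p of 0.05 in colour. Lists for tubules and mitochondria lie to the right of 0, ribosomal proteins near it, and lists for matrix, macrophages, and complement to the left.

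The 8 largest falls among genes with a mean of at least 10 CPM over the 8 UUO libraries and no overlap were *Lgi2*, *Mrc1*, *Ptk7*, *Dapk2*, *Aldh1a2*, *Ankrd6*, *Rnd1*, and *Clec4a2*, at -1.87 to -1.62. *Aldh1a2*, which makes retinoic acid, was the most abundant of them at 105, 112, 90.1, and 160 CPM in PbWT and 53.4, 20.2, 24.8, and 52.3 in PbKO. *Lgi2*, a secreted protein, was at 18.5 to 20.1 CPM in PbWT and at 4.27 to 6.67 in PbKO, and *Ptk7*, a receptor of Wnt and planar polarity signalling, ranged from 16.9 to 27.4 and from 3.91 to 10.0. The call of *Clec4a2* was lost without A12 (adjusted p = 0.0603 by edgeR), with *Xist* as a covariate, with all 12 groups in 1 fit, and without C12 and D12, and that of *Dapk2* without C12 and D12. F10 held no count of *Dapk2* and *Clec4a2*, which at its depth allows up to 10.0 CPM by counting error alone. Apart from *Aldh1a2* and *Mrc1* these falls rest on low counts, as 3 counts were worth 2.34 to 3.36 CPM in the other PbKO libraries.

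Genes that respond to obstruction were taken from mice outside the comparison, as those that differed between UUO and CL kidneys in the same direction in IgG-treated mice and in *Veptp* WT controls. The adjusted p had to be under 0.05 in both. The IgG libraries were fitted together with those of ABTAA-treated mice, and the *Veptp* WT libraries with those of the *Veptp* knockout. Of 9575 genes tested in both, 795 (8.30%) were induced and 791 (8.26%) repressed. Among the 792 induced genes tested in PbKO against PbWT, 358 were lower and 0 higher, with a median of -0.60, and 232 were lower without A12. Among the 791 repressed genes 574 were higher and 0 lower, with a median of 0.73. Induced genes made up 49.7% of all genes lower in PbKO UUO and repressed genes 43.7% of those higher, so 711 higher and 267 lower genes were tested in the other mice without being called in both.

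**Figure D4:**
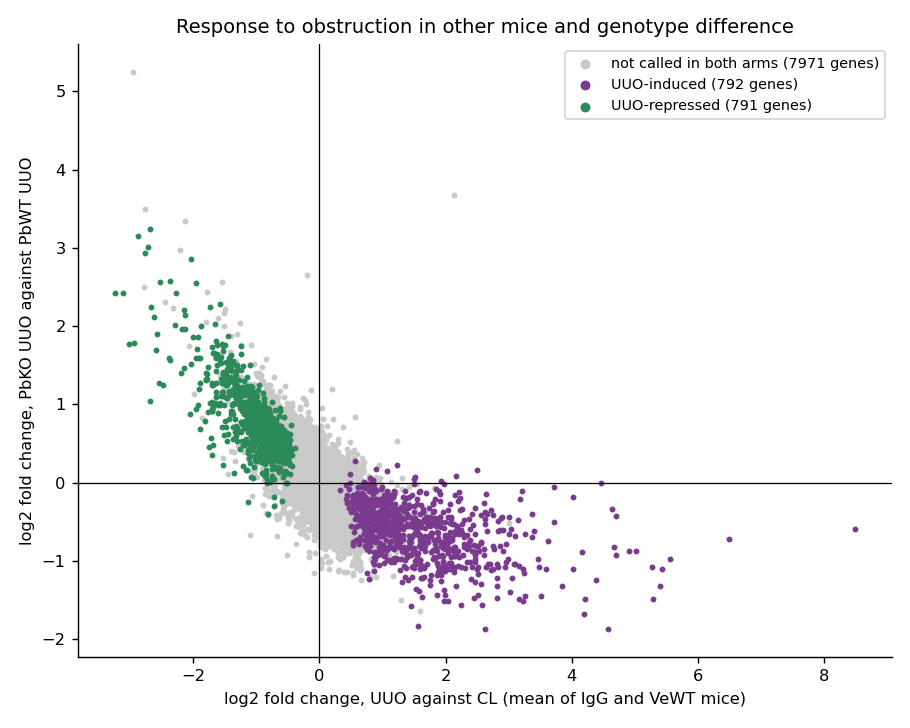
Log2 fold change of UUO against CL, as the mean of IgG-treated and *Veptp* WT mice, on the x axis and of PbKO UUO against PbWT UUO on the y axis, 1 point per gene. The 792 induced genes lie mostly below 0 on the y axis and the 791 repressed genes mostly above it.

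By library, the mean log2(CPM + 1) of the induced genes was 5.72 to 5.94 in PbWT UUO, 5.07 to 5.39 in PbKO UUO, and 4.04 to 4.53 in CL kidneys, and that of the repressed genes 5.65 to 5.89, 6.42 to 6.66, and 6.85 to 7.04. The PbKO UUO libraries thus formed a group between the others on both axes. As these libraries also hold transcripts of both sexes, a mixture of RNA between animals or kidneys would bear on every fold change given here. It was not tested, and an admixture of CL RNA cannot be told apart from a smaller difference between UUO and CL kidneys. F10 was nearest to the CL libraries and F12 farthest, and *Xist* was highest in F10 and lowest in F12 of the 4. The Y-linked sum was instead highest in E11 and lowest in A12, and F10 was also the shallowest library. No link between these values was tested. Other values moved with the genotype in these libraries. Red blood cell markers summed to 319 to 424 CPM in PbWT UUO and 564 to 835 in PbKO UUO, with 3 of 4 genes higher (1 without A12), and the ribosomal RNA-overlapping genes *Gm42418* and *AY036118* took 5.41% to 7.34% and 7.67% to 10.7% of counts, both higher in the test but lost without any 1 of A5, B11, C12, F10, or E11. Male-biased kidney genes had 3 of 8 higher, *Kap*, *Cyp4b1*, and *Cyp2e1*. All 8 values were positive, from 1.74 to 3.34, and their median of 2.08 was the largest of any list. They summed to 1477 to 3752 CPM in PbWT UUO and 5391 to 21330 in PbKO UUO, with F10 highest. The calls of *Cyp4b1* and *Cyp2e1* were lost without D11, C12, D12, or F10, and that of *Cyp2e1* without E11, and *Cyp4b1* moved from 2.55 to 1.22 without F10. Of the female-biased genes 0 of 3 passed by edgeR (0 at an unadjusted p under 0.05, 0 by DESeq2). The part of these values in the results was not tested. With *Xist* as a covariate 1393 genes were higher and 713 lower, and 28 proximal tubule, 10 thick ascending limb and distal convoluted tubule, 36 complex I, 38 complex II to V, 13 mitochondrial DNA, and 12 collagen genes passed in the same directions. This fit could not have shown an effect of mixing. All 4 PbKO UUO libraries hold both kinds of transcript, so mixing and genotype cannot be told apart, and the *Xist* level does not measure mixing.

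**Figure D5:**
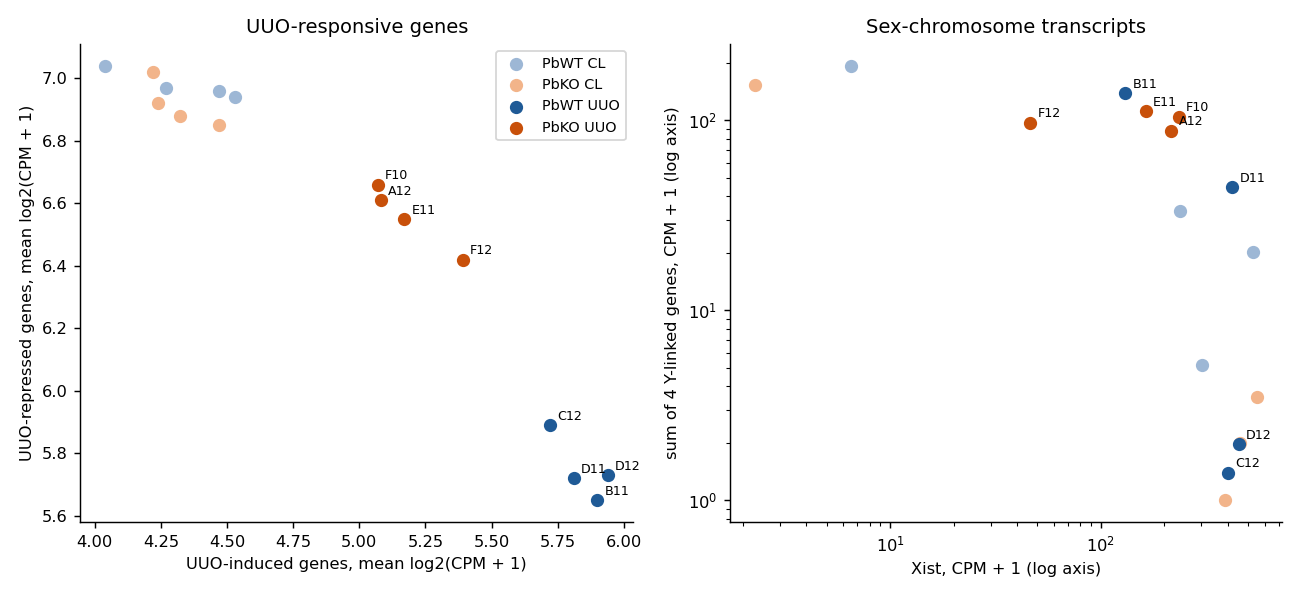
Left, mean log2(CPM + 1) of UUO-induced against UUO-repressed genes for each of the 16 libraries; right, *Xist* against the sum of 4 Y-linked genes in CPM + 1 on log axes. The 4 PbKO UUO libraries (F10, E11, A12, and F12) lie between the CL and PbWT UUO libraries on the left and hold both kinds of sex-chromosome transcript on the right.

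The genotype effect was also compared between UUO and CL libraries. The effect in UUO minus that in CL passed for 934 of 10923 genes (8.55%), of which 880 were among the 2035 that differed in UUO, and both counts share the UUO libraries. UUO and CL kidneys can come from the same mouse, but the labels do not link them, so the fit treated all libraries as separate and its errors for this difference leave any sharing of animals out. For *Calb1* this difference of effects was 2.98 (SE 0.28), for *Egf* 3.06 (SE 0.34), and for *Ttr* 3.43 (SE 0.38), each close to the UUO effect itself. In the other direction it was -2.82 (SE 0.66) for *Mrc1* and -1.27 (SE 0.36) for *Pdgfrb*, while for *Lgi2* and *Aldh1a2* it was -0.14 (SE 1.86) and -0.63 (SE 0.69) and did not pass. With all 12 groups in 1 fit 22 genes passed this test.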

How the data were processed

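The authors deposited 1 table of raw counts per gene for 75 libraries, made from wells run in quadruplicate, merged, mapped with STAR 2.7.3a to mm10 per the labels, freed of duplicates by molecular identifier with UMI-tools 1.1.4, and counted with featureCounts (Subread 1.4.6-p5). The annotation release is not given in the sources used here. Deposited counts were used as they are, and 0 columns were left without a sample. The 16 *Pdgfb*-arm libraries were fitted together in R 4.3.3 with edgeR 4.0.16 (TMM, filterByExpr by group, glmQLFit, glmQLFTest), which kept 10923 of 32245 genes, with Benjamini-Hochberg adjustment over all of them and a threshold of 0.05. The standard error is the log2 fold change divided by the square root of F. The study's exact test, DESeq2 1.42.0, and other settings were alternatives. The procedure was tested on simulated data. Replicate pairs differed by 1.85 to 4.15 times sampling noise (chi-square per degree of freedom), so no library was counted as a duplicate. Named genes were the PDGF genes, the study's panels, the 8 largest rises and falls of at least 10 CPM without overlap (at most 2 predicted genes each), and up to 3 leading genes per list with 1 of the other direction. Other list members were named after their values were seen. The comparison and the lists were chosen with earlier results of these data known. Positions are from GENCODE (GRCm38). Depth limits low genes, with 3 counts worth 1.19 to 10.0 CPM in UUO libraries, for counting error alone. Results that need withheld items are not reported here.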

Additional observations from a re-analysis of the deposited data

Results flagged for a closer look

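In 7 groups of 4 libraries 1 library stood far from the other 3, among 56 such groups checked, where chance gives about 1 in 20. D12 was highest in PbWT UUO for *Pdgfrb* (67.6 CPM), *Mrc1* (70.5 CPM), and *Clec4a2* (21.6 CPM). In PbKO UUO F12 was highest for *Pvalb* (91.4 CPM) and lowest for *Ces1d* (200 CPM), and A12 was highest for *6330410L21Rik* (53.8 CPM). B11 was lowest in PbWT UUO for *Xist* (130 CPM).

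For 13 of 22 genes (the PDGF genes and the 8 largest rises and falls) the genotype effect differed between UUO and CL kidneys by the interaction in edgeR's quasi-likelihood fit. Of these 22 genes 16 were chosen for their effect in the same UUO libraries, so the count is a description, beside 8.55% of all genes tested. The log2 differences were -1.26 for *Pdgfb*, -1.27 for *Pdgfrb*, 4.71 for *Pvalb*, 4.11 for *Inmt*, 3.43 for *Ttr*, 2.98 for *Calb1*, 3.06 for *Egf*, 2.82 for *S100g*, 2.80 for *6330410L21Rik*, 3.04 for *Ces1d*, -2.82 for *Mrc1*, -1.83 for *Ptk7*, and -3.02 for *Ankrd6*.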

How the results depend on the processing

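Counts of genes and panel members and the fold change of *Pdgfb* were recomputed under 11 settings, without each of the 16 libraries, and in 2 splits of the PbWT UUO libraries that were chosen after seeing the data; genes called in both the reported fit and another setting had the same sign in each. Without normalization factors 667 genes were higher and 2383 lower, the tubular injury panel had 8 lower, and *Pdgfb* was at -0.73 (adjusted p = 0.0116), while *Pdgfc* (-0.15), *Pdgfd* (-0.08), *Krt7* (-0.25), and *Cryab* (-0.13) turned negative. The exact test without TMM called 3631 genes, 734 higher and 2897 lower, with 8 of the tubular panel and *Pdgfb* at -0.71 (adjusted p = 0.000543), *Pdgfc* at -0.15, *Pdgfd* at -0.08, *Krt7* at -0.25, and *Cryab* at -0.14. Lower calls by DESeq2 numbered 436, with 1 of the tubular panel. The tubular panel had 6 lower without a filter on low counts, by the exact test with TMM (*Pdgfb* -0.46, adjusted p = 0.0396), and with the UUO libraries alone (*Pdgfb* -0.47, adjusted p = 0.0472), and *Krt7* was at -0.02 with a mean count of at least 20. With all 12 groups in 1 fit 321 genes passed, 260 higher and 61 lower, with 3 of the matrix panel, 1 of the tubular panel, and 22 interaction genes. With *Xist* as a covariate its own value was 0.03. After thinning, which left fewer genes to test, 651 genes passed, 455 higher and 196 lower, with 4 of the tubular panel, 198 interaction genes, and *Hbegf* at 0.47. Without B11 and D11, which hold Y-linked counts, 1177 genes passed, 820 higher and 357 lower, with 1 of the tubular panel, 560 interaction genes, *Krt7* at -0.22, *Cd44* at 0.03, and *Sox9* at 0.50. Without C12 and D12, 1314 passed, 354 of them lower, with 8 of the matrix panel, 1 of the tubular panel, *Kdr* at 0.12, and *Cryab* at -0.15. Leaving out 1 library at a time gave 1477 to 2264 genes, 1037 to 1433 higher and 440 to 831 lower (453 without D12, 440 without E11, 444 without A12), 6 to 13 of the matrix panel (7 without E11, 6 without A12), 1 to 3 of the tubular panel (1 without B11, D11, D12, or F12), and 652 to 1091 interaction genes. In these fits *Pdgfb* stayed between -0.56 and -0.42, *Pdgfc* ranged from -0.05 to 0.20, *Pdgfd* from 0 to 0.40, *Krt7* from -0.12 to 0.15 (-0.03 without D11, E11, or F12), *Cryab* from -0.03 to 0.35, and *Hbegf* from -0.61 to 0.10 (0.02 without A12). Of 127 named genes past the threshold 39 lost their call without at least 1 library and 90 with all 12 groups. Apart from the smaller number of libraries or genes, the cause of these differences was not tested. No paired analysis was possible because the labels give no number or animal that links the UUO and CL kidneys of 1 mouse, or libraries across genotypes. Depth limits genes under about 10 CPM in F10.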

Other observations

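Values of other gene groups are to be read against the 12.0% of all genes higher and 6.60% lower in PbKO UUO. Of 8 heat shock genes 3 were higher, *Hspe1*, *Hspd1*, and *Hspa8* (0.84, 0.57, and 0.43), the first and second chaperonins of mitochondria, and the list's median of 0.26 turned to -0.01 without TMM factors. The call of *Hspa8* was lost without any 1 of 10 libraries and with the UUO libraries alone, and its value was 0.24 without F10. Proteasome subunits had 5 of 31 (16.1%) higher, near that share, with 2 without D11 and 3 without C12, F10, or F12 (median 0.18, and -0.09 without TMM factors). In sterol and fatty acid synthesis 3 of 23 (13.0%) were higher, about the share of all genes. They were *Cyp51*, *Hmgcs1*, and *Insig1* (1.01, 0.58, and 1.09), and the calls of *Hmgcs1* and *Insig1* were lost without TMM factors and without B11, D11, or F10. *Herpud1*, of endoplasmic reticulum-associated degradation, was the 1 of 14 ER stress genes that passed (0.71).

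Interferon-stimulated genes had 2 of 15 lower, *Ifit2* and *Oasl2* (-0.84 and -1.18), and antigen presentation 1 of 12, the peptide transporter *Tap2* (-0.87), and all values of both lists were negative. The interferon list had 1 lower without D11, D12, E11, or A12, and antigen presentation 2 without E4, F4, C12, or F10. YAP targets and cofactors had 3 of 10 lower, *Axl*, *Ccn1*, and *Ccn2* (-1.03, -0.85, and -0.51), and 1 without D11 or without A12. *Cfd*, the complement factor made by fat cells, was at 134 CPM in F12 and at most 5.02 in the other UUO libraries, and 0 of 3 fat cell markers passed by edgeR (1 at an unadjusted p under 0.05, 0 by DESeq2), a count that depended on the libraries used. In 14 of 16 fits that left out 1 library 1 or 2 fat cell markers of the 3 to 5 then tested were higher, 2 without D11, and without F12 1 was lower.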
